A study of Mus musculus with 2 samples.

Results

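Cells rich in transcripts of 5 stress-related genes, Ddit3, Pmaip1, Nupr1, Fam129a and Aqp3, were examined in mouse gastruloids at day 2.5. Cells were kept with at least 2500 UMIs (unique molecular identifiers, each counting 1 captured transcript), at least 1000 detected genes and at most 10% of UMIs from mitochondrial genes. The UMIs of the 5 genes were summed in each cell and divided by the cell's total, and the members were the 1% of kept cells of each library with the highest share. This gave 87 of 8707 kept cells in the wild-type-labelled library and 106 of 10587 in the library labelled Sp5/8 double knockout, 193 of 19294 in all. The other 99% of kept cells are called the remaining cells.

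Gastruloids are aggregates of embryonic stem cells that pass from an epiblast-like state towards primitive streak and early germ layer fates. Both libraries came from aggregates seeded with about 300 cells in serum-free N2B27 medium, either the mouse embryonic stem cell line R1 as wild type or Sp5/8dko cells. At day 2 both were given 3 µM CHIR, which activates Wnt signalling, and 12 hours later aggregates were pooled, dissociated with TrypLE Express and captured with 10x Genomics 3′ chemistry. Each genotype has 1 library, so no difference between them has a replicate, none was tested, and the labels do not say how many clones stand for the double knockout.

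The libraries held 104083993 and 103187025 UMIs over all barcodes in the order wild type, double knockout, and kept cells had a median of 10571 and 8637 UMIs. The libraries shared 27 kept barcodes, 0.310% and 0.255% of each. Sp5 stood at 109 counts per 1000000 UMIs (CPM) in the remaining cells labelled wild type and at 479 in those labelled double knockout, and Sp8 at 20.8 and 40.2. Both targeted genes were thus higher in the library labelled double knockout, against its label, although the labels do not give the deleted part and 3′ reads can come from a transcript that keeps its end. The libraries are therefore named by their labels throughout.

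Ddit3 encodes CHOP, a transcription factor made when the integrated stress response slows general translation and favours the factor ATF4, as on amino acid shortage or unfolded protein in the endoplasmic reticulum. Pmaip1 encodes Noxa, a pro-apoptotic BH3-only protein induced by p53 and by ATF4, and Nupr1 encodes a small nuclear protein that ATF4 and CHOP induce. Fam129a encodes Niban, a stress-induced protein that affects translation, and Aqp3 encodes a channel for water and glycerol. On GRCm38 (GENCODE M21) Ddit3 lies at chr10:127290774-127296288 (plus strand), Nupr1 at chr7:126623249-126630861 (minus), Fam129a at chr1:151571186-151721939 (plus) and Aqp3 at chr4:41092722-41098183 (minus).

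Because the 5 genes chose the members, their levels there are a description only. Ddit3 stood at 93.5 CPM in the members labelled wild type and 5.13 in the remaining cells, and at 124 (95% counting interval 101 to 152) and 5.41 in the library labelled double knockout. Pmaip1, the most abundant of the 5 in the members, stood at 186 against 6.10 CPM and at 215 against 6.03. Nupr1 stood at 27.9 against 1.08 and at 34.3 against 1.63 CPM. These intervals, like all intervals given here, are exact 95% intervals that cover counting error only. Fam129a stood at 19.5 against 2.15 CPM in the wild-type-labelled library and at 62.2 against 2.01 in that labelled double knockout. Aqp3, nearly absent elsewhere, stood at 14.0 against 0.124 CPM and at 7.62 against 0.103, from 7 and 3 members. In both libraries Pmaip1 stood highest, Ddit3 next and Aqp3 lowest, while Nupr1 stood above Fam129a in the first and below it in the other. These levels are counts of transcript 3′ ends and are not scaled to gene length.

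**Figure D1:**
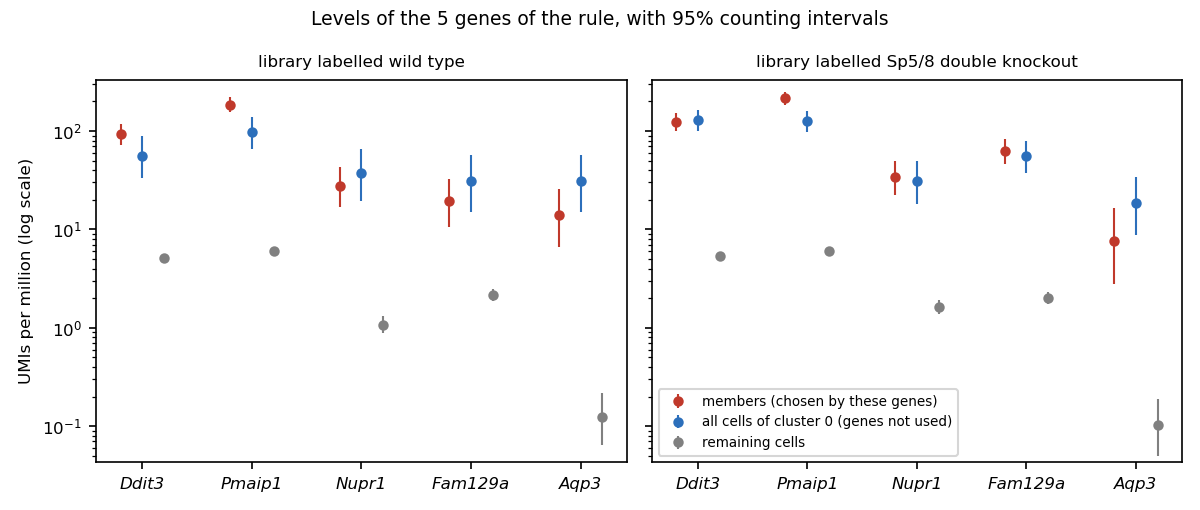
Levels of the 5 genes in CPM (log scale) in the members (red), in all cells of cluster 0 (blue) and in the remaining cells (grey) of each library, with bars for 95% counting intervals. Pmaip1 is highest and Aqp3 lowest in the members of both libraries, and cells of cluster 0, found without these genes, stand well above the remaining cells for all 5.

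Few UMIs carry the choice. Members held 244 and 349 UMIs of the 5 genes in all, at most 10 and 9 in a cell, and 18 and 11 members were chosen on a single UMI. The highest share was 11.3 UMIs per 10000 in the wild-type-labelled library and 10.4 in the other. The last cell inside and the first outside had 2.24 and 2.22 per 10000 in the library labelled wild type, and 3.00 and 2.94 in that labelled double knockout, so the edge is no gap. No UMI of the 5 genes was seen in 84.9% and 87.0% of kept cells. Barcodes of at most 100 UMIs, which hold mainly free RNA, carried the 5 genes at 22.4 and 21.8 CPM, above the 14.6 and 15.2 CPM of the remaining cells, so single UMIs in the remaining cells, and in the members chosen on 1 UMI, cannot be told apart from free RNA.

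The name Ddit3 and Pmaip1 cells holds for only some of the members. Ddit3 was detected in 39 of 87 and 51 of 106 members, Pmaip1 in 54 and 74, and both in 15 and 28. Neither was detected in 9 members of each library. When cells were chosen by 4 of the genes and the fifth was left out, the left-out gene was still higher in the chosen cells. Ddit3 was then 4.24-fold higher (interval 2.49 to 6.76) in the wild-type-labelled library and 8.16-fold (5.75 to 11.3) in that labelled double knockout. The same ratio for Pmaip1 was 4.76 and 8.36, for Nupr1 10.2 and 10.4, for Fam129a 4.40 and 14.4, and for Aqp3 62.7 and 55.9, the last resting on 7 and 5 UMIs. For all 5 genes these ratios lay below those in the members themselves, where the gene's own UMIs help choose the cells. The ratios in the members were 18.2 and 23.0 for Ddit3 and 30.4 and 35.6 for Pmaip1. Among cells with a mitochondrial share of 1% or more alone, the ratio of Ddit3 when left out was 2.22 (1.10 to 3.998) and 5.84 (3.88 to 8.49). That of Pmaip1 was 0.955 (0.309 to 2.24) and 4.57 (2.94 to 6.80), so in the library labelled wild type it was not higher there.

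For Nupr1 the region before the start is shown, since it carries a match to the composite element bound by ATF4 with C/EBP partners, the class of site through which the stress response reaches its targets. The letters searched were TGATGNAA on both strands in windows of 250 bases before to 50 after each start, from RefSeq on GRCm38.p6. Of 27025 such windows 4.06% hold a match. Windows were at hand for 4 of the 5 genes, and Nupr1 alone of these 4 had a match. Capitals mark it, TTGCATCA, which begins 110 bases before the start and is the reverse strand form. The 250 bases lie at chr7:126625471-126625720 (minus strand).
Nupr1: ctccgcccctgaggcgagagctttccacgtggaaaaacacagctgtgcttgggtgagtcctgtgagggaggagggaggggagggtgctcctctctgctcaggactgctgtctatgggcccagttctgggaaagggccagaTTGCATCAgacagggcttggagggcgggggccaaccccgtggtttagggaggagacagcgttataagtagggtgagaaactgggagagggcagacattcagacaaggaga

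The members differed widely in their mitochondrial share, and a large minority had almost no mitochondrial UMIs. In the library labelled wild type 26 of 87 members (29.9%, interval 20.5 to 40.6) had under 1% of UMIs from mitochondrial genes, against 3.81% of the remaining cells. In the library labelled double knockout these were 38 of 106 (35.8%, 26.8 to 45.7) against 3.46%. The median share was 0.238% and 0.285% in these low-mitochondrial members and 3.89% and 3.46% in the other members. In the library labelled wild type no member lay between 1% and 2%, so the groups there did not touch, and in that labelled double knockout 10 members did. The low-mitochondrial members had median depths of 4950 and 4888 UMIs, the other members 8790 and 8756. The limit of 1% was chosen after the values were seen.

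Depth moves with this split, since a single UMI weighs more in a shallow cell. Of the members chosen on 1 UMI, 10 of 18 and 10 of 11 were low-mitochondrial. Of the members with 4 or more UMIs of the 5 genes, 6 of 20 and 12 of 32 still were. Among cells of 5000 to under 10000 UMIs, members made up 11 of 84 low-mitochondrial cells (13.1%, interval 6.72 to 22.2) against 29 of 3244 cells at 1% or more (0.894%) in the library labelled wild type. In that labelled double knockout they made up 16 of 59 (27.1%, 16.4 to 40.3) against 48 of 6529 (0.735%). The summed level of the 5 genes in these cells was 83.4 and 210 CPM under 1%, and 15.1 and 16.8 CPM at 1% or more. After every cell was thinned to 2500 UMIs, 2 or more UMIs of the 5 genes remained in 4 of 354 low-mitochondrial cells (1.13%, 0.309 to 2.87) against 18 of 8353 others (0.216%, 0.128 to 0.340) in the first library, intervals that overlap, and in 16 of 401 (3.99%, 2.30 to 6.40) against 35 of 10186 (0.344%, 0.239 to 0.478) in the other. Between 5000 and 10000 UMIs the low-mitochondrial cells thus held members more often in both libraries. Among the shallowest cells, of 2500 to under 5000 UMIs, this was so in the library labelled double knockout, where the shares were 6.20% against 1.80%, and not in that labelled wild type, where they were 4.89% against 6.21%.

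**Figure D2:**
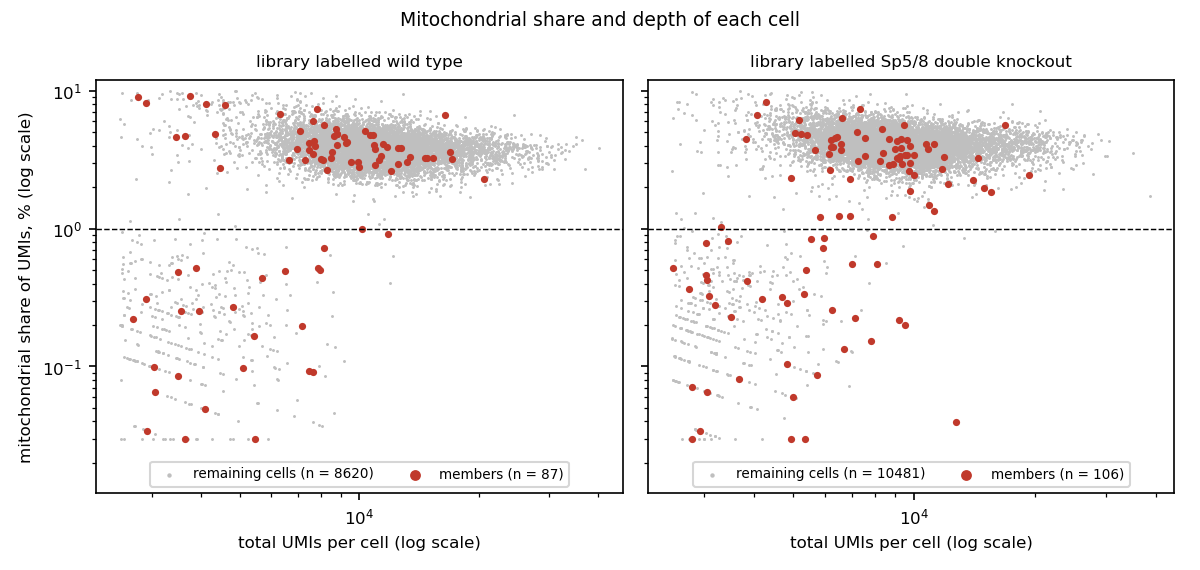
Each point is 1 kept cell, by its total UMIs and its mitochondrial share in percent (both log scales, cells with no mitochondrial UMI drawn at the foot), with members in red and the remaining cells in grey. Members lie in the main cloud and in a thin scatter below the dashed line at 1%, which holds 26 of 87 and 38 of 106 members.

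Cells were also clustered on their other genes, leaving out the 5 genes of the rule, mitochondrial, ribosomal and cell cycle genes, Sp5 and Sp8. One of 8 clusters, cluster 0, held 40 cells of the library labelled wild type and 77 of that labelled double knockout. Of these 18 (45.0%, interval 29.3 to 61.5) and 40 (51.9%, 40.3 to 63.5) were members, which is 20.7% and 37.7% of all members. All cells of cluster 0 together carried the 5 genes at 254 CPM (202 to 315) and 359 CPM (310 to 413), against 16.2 and 16.7 CPM in the rest, although the 5 genes took no part in the clustering. Of its cells 77.5% and 79.2% had a UMI of the 5 genes. The genes that led it over the other clusters were Aqp3, Tbx3, Ddit3, Fam129a, Ahnak2, Pmaip1, Nupr1, Cldn4, Bhlhe41 and Zfas1. It was given no cell type name, since the only marker list it met was the 5 genes themselves. Of its cells 80% and 68.8% were low-mitochondrial. Genes of the ATF4 and p53 lists were then also left out of the clustering. The cluster with Aqp3 among its leading genes held 21.8% and 39.6% of the members. It was led by Rhox6, Rhox9, Sct, H19, Krt19, Lgals3, Serpinb9b, Serpinb9e, Plet1 and Aqp3. How many of its cells were those of cluster 0 was not counted.

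The members outside cluster 0 were spread over the other clusters. Clusters 1 and 2, led by Tdgf1 and by Mixl1 and both rich in primitive streak markers, held 16 and 18 members of the library labelled wild type and 29 and 12 of the other. Cluster 3, led by Irx3 and Gbx2, held 16 and 8. Cluster 4, rich in naive pluripotency markers, held 3 and 5, cluster 6, rich in neural markers, 7 and 2, and cluster 7, rich in extraembryonic endoderm markers, 1 and 0. Cluster 5 gathered shallow cells (median 3682 and 3226 UMIs), of which 96.0% and 95.5% were low-mitochondrial, and held 8 and 10 members. Its cells carried the 5 genes at only 9.27 and 10.4 CPM, so a low mitochondrial share alone did not go with these genes. Members inside cluster 0 carried 2 or more of the 5 genes in 61.1% and 75% of cells, and members outside it in 17.4% and 37.9%. Outside cluster 0, cells chosen by the other 4 genes had Ddit3 2.13-fold (1.02 to 3.95) and 2.62-fold (1.34 to 4.61) higher than the rest. Pmaip1 there was 1.78-fold (0.809 to 3.39) and 2.80-fold (1.52 to 4.74) higher, so its ratio was not apart from 1 in the library labelled wild type.

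**Figure D3:**
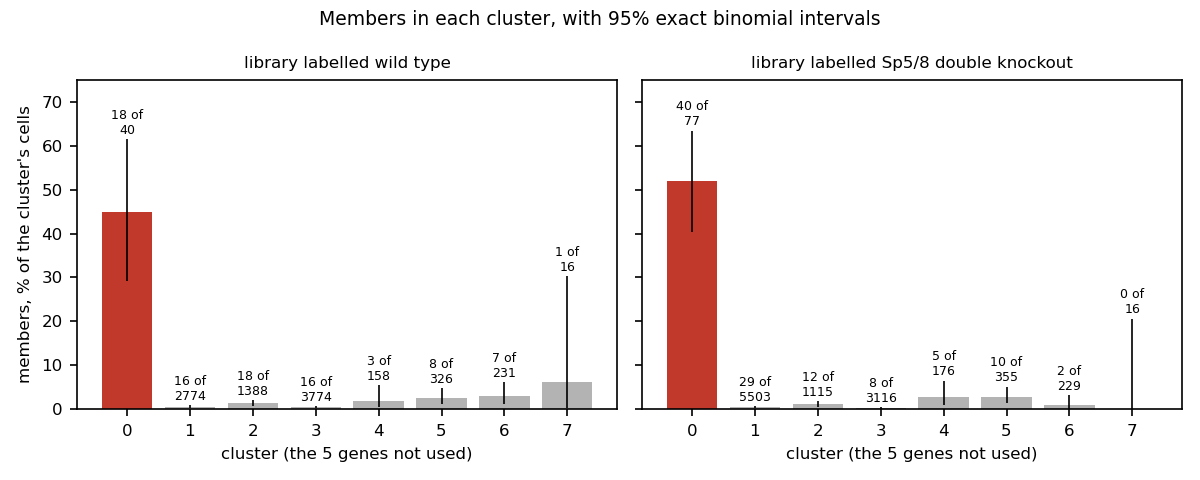
Percent of the cells of each cluster that are members, with exact binomial 95% intervals and the counts above the bars, for both libraries. Cluster 0, found without the 5 genes, stands at 45.0% and 51.9%, above every other cluster in both libraries except that the interval of cluster 7, with 16 cells, reaches into its interval in the library labelled wild type.

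Across all other genes, the summed UMIs of the members were set against those of the remaining cells of the same library. A gene was called where its log2 ratio was at least 1 in size and in the same direction in both libraries, among genes at 20 CPM or more in both. The log2 ratios add 0.5 UMI to each sum and leave the 5 genes out of the totals. Of 5451 genes, 14 were higher (0.257%) and 0 were lower (0.0%) in the members. They were Rragc, Fnip1, Ifi30, Cd63, Lgals1, Fabp3, Btg1, Klf6, Hspb1, Malat1, Zfas1, Snhg1, Snhg12 and 2410006H16Rik. Median log2 ratios over all genes were 0.01 and -0.04. Among the 2896 genes at 50 CPM or more 8 were higher (0.276%) and 0 lower. All 14 were also called in the low-mitochondrial members, and without those members no gene was called. Of the low-mitochondrial members 17 of 26 and 28 of 38 lay in cluster 0. Of the 9 and 10 outside it, 8 and 9 lay in cluster 5, and 7 and 9 were chosen on 1 UMI. Members in and outside cluster 0 were not set apart in the gene comparisons. The count of 14 genes became 33 with the top 0.5% of cells, 2 with the top 2%, 3 without Ddit3 in the score and 0 when cells were scored after thinning to 2500 UMIs.

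The small nucleolar RNA host genes, noncoding genes whose introns give rise to small nucleolar RNAs and whose spliced transcripts are cleared by decay that depends on translation, gave 3 of the 14 genes called in the members. Zfas1 (chr2:167062934-167065862) stood at 237 against 89.6 CPM in the wild-type-labelled library and at 474 against 89.1 in that labelled double knockout. Snhg1 (chr19:8723475-8726443) stood at 476 against 208 CPM and at 1024 against 216. Snhg12 stood at 237 against 105 and at 351 against 116 CPM. The clone-named gene 2410006H16Rik, which also overlaps small nucleolar RNA genes, stood at 1144 against 370 and at 1725 against 399 CPM. Of the 18 listed host genes 14 were tested and 3 were called higher, beside 0.257% of all genes. The list's median log2 ratio was 0.43 and 0.60. The list was drawn up after values were seen.

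Within the members this group was highest at low mitochondrial share. Against the remaining cells at 1% or more, Zfas1 had log2 ratios of 2.85 and 3.09 in the low-mitochondrial members and 0.58 and 2.06 in the other members, and Snhg1 had 2.40 and 2.87, then 0.60 and 1.93. In cells, Zfas1 was detected in 14 of 26 and 26 of 38 low-mitochondrial members, with a lowest level of 0, medians of 199 and 342 CPM and highest values of 2149 and 3422 CPM. Its median in the remaining cells at 1% or more was 79.1 and 74.0 CPM. Single cells thus overlap, and 12 low-mitochondrial members of each library had no Zfas1 UMI. Gas5 had log2 ratios of 2.03 and 2.27 in the low-mitochondrial members and 0.30 and 1.44 in the other members. In the low-mitochondrial members 7 of 15 tested host genes were called higher (Gas5, Snhg1, Snhg12, Snhg16, Snhg5, Snhg6 and Zfas1) beside 1.83% of all genes, and in the other members 0 of 15 were. In the low-mitochondrial remaining cells the list's median was -0.87 and -0.65 with 5 of 15 called lower, beside -0.34 and -0.33 and 18.7% over all genes. These comparisons share their reference cells.

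In the low-mitochondrial members 102 of 5559 genes were called higher (1.83%) and 170 lower (3.06%), from 141358 and 196088 UMIs. At 50 CPM or more 36 of 3003 were higher (1.2%) and 88 lower (2.93%). In the other members 0 were called in each direction (0.0% for both), from 551405 and 569866 UMIs. In single libraries 22 and 16 genes were higher and 19 and 34 lower by that size in the other members. In the low-mitochondrial members 223 and 226 genes were higher and 732 and 572 lower in single libraries. Their sums hold fewer UMIs, so counting error is larger there and the counts of the 2 groups are not on equal terms. Among the low-mitochondrial remaining cells 0 genes were higher (0.0%) and 1040 lower (18.7%). Set against those cells, the low-mitochondrial members had 766 genes higher (13.8%) and 102 lower (1.83%). Of the 102 genes first named, 78 were also higher there, 76.5% of that list and 10.2% of the 766, but both comparisons hold the same members.

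**Figure D4:**
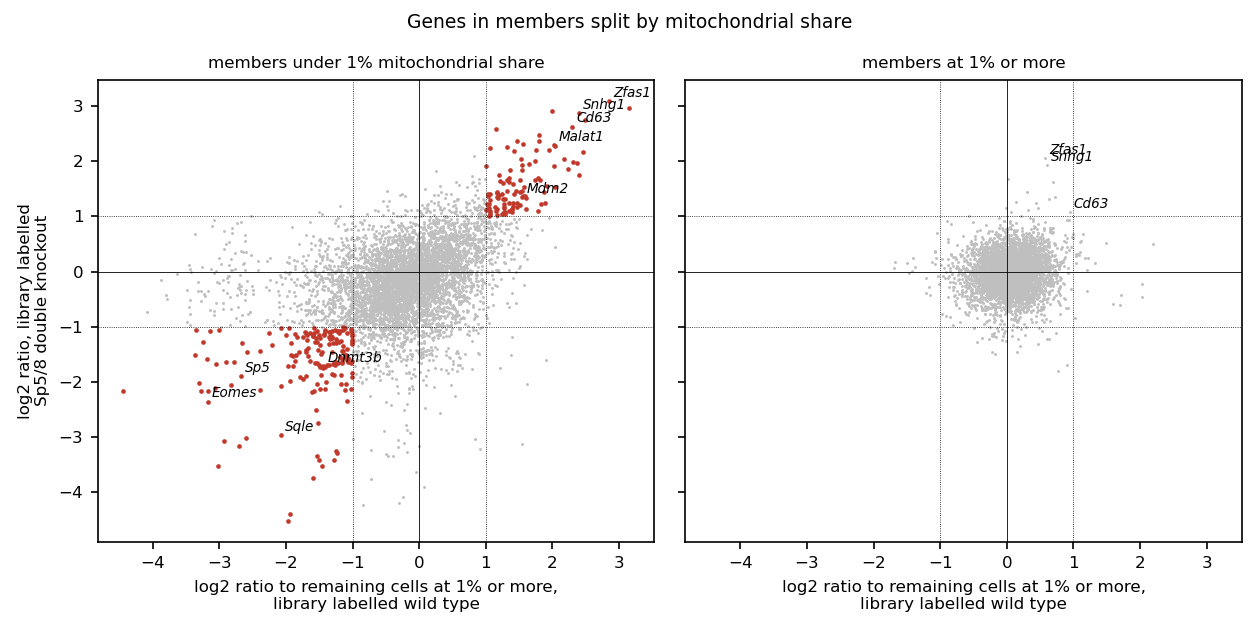
Log2 ratio of each of 5559 genes in the library labelled wild type (horizontal) and in that labelled double knockout (vertical), for low-mitochondrial members (left) and the other members (right) against the remaining cells at 1% or more, with called genes in red. The left panel holds 102 genes called higher and 170 called lower, the right panel none, with Zfas1 and Snhg1 standing higher in the library labelled double knockout.

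Lysosomal genes formed the next group. Lysosomes break down proteins and lipids, and the factors TFEB and TFE3 raise their genes through a short E-box when nutrient signalling through the Rag GTPases and mTORC1 falls. Cd63, a tetraspanin of lysosomes and late endosomes, stood at 505 against 199 CPM in members and remaining cells labelled wild type and at 521 against 164 in those labelled double knockout. It reached 1012 and 1051 CPM in the low-mitochondrial members, of which 21 of 26 and 31 of 38 had a UMI. Ifi30, a lysosomal thiol reductase, stood at 92.1 against 39.1 and at 95.3 against 39.6 CPM in all members. Hexa, a subunit of beta-hexosaminidase, had log2 ratios of 2.7 and 2.82 in the low-mitochondrial members and 0.89 and 0.74 in the other members. Its level in all kept cells is under 20 CPM, so it could not be called. The acid proteases Ctsl and Ctsd and the membrane glycoproteins Lamp1 and Lamp2 were called higher in the low-mitochondrial members, Ctsl at 1.28 and 1.31 and Lamp2 at 1.15 and 1.09.

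Of the list of lysosome and autophagy genes 5 of 10 tested were higher in the low-mitochondrial members and 0 lower. Over all genes 1.83% were called higher there and 3.06% lower. The list's median log2 ratio was 1.03 and 1.07 beside -0.19 and -0.18 over all genes. In the wider list of lysosomal enzyme and membrane genes, drawn up after values were seen, 8 of 16 were higher and 15 of 16 stood above 0 in both libraries. Of the vacuolar ATPase, the pump that makes the lysosome acid, 3 of 16 tested subunit genes were higher. They were Atp6v0b at 1.87 and 1.44, Atp6v0d1 at 1.91 and 1.55 and Atp6ap2 at 1.78 and 1.09. In the other members 0 genes of these 3 lists were called, and the medians were 0.12 and 0.22, 0.15 and 0.25, and 0.12 and 0.35. In the low-mitochondrial remaining cells they were -0.44 and -0.40, -0.95 and -0.76, and -0.26 and -0.17, beside -0.34 and -0.33 over all genes.

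Among the genes of nutrient sensing at the lysosome, Rragc, which encodes the GTPase RagC, stood at 60.01 against 29.9 and at 55.9 against 26.5 CPM in all members. Fnip1, a partner of folliculin in the complex that acts on RagC, stood at 72.6 against 29.4 and at 67.3 against 27.5 CPM. In the low-mitochondrial members Rragc, Fnip1 and Flcn, which encodes folliculin, were the 3 of 10 tested genes of this list that were called higher. Over all genes 1.83% were called higher there. Flcn there had log2 ratios of 1.52 and 1.67. Each rests on few UMIs, with 20 and 19 for Rragc and 21 and 22 for Fnip1.

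The E-box of this class, TCACGTG, was searched on both strands in the same windows, a motif chosen after these genes were seen. It was found in 20 of 87 windows of the genes higher in low-mitochondrial members (23.0%), in 2 of 133 windows of the lower genes (1.5%), in 7.34% of the 4535 windows of genes at 20 CPM or more and in 3.84% of all windows. Of the 14 genes higher in all members 13 had a window and 4 a match (30.8%), namely Rragc, Fnip1, Ifi30 and Klf6. TGATGNAA was in 6 of the 87 windows (6.90%) and in 1.76% of those of genes at 20 CPM or more. No match was found in the 87 for the endoplasmic reticulum stress element (ERSE), which is in 0.13% of all windows. A match is a description of letters, not of a bound site. The 250 bases before the start are shown for these 4 genes and for Lamp1, a known target with 4 matches, because they carry the letters that recur. Capitals mark TCACGTG or its reverse form CACGTGA, and in Ifi30 both overlap by all but 1 base. They lie at chr4:123917183-123917432 (plus strand), chr11:54437929-54438178 (plus strand), chr8:70766664-70766913 (minus strand), chr13:5861239-5861488 (plus strand) and chr8:13158911-13159160 (plus strand).
Rragc: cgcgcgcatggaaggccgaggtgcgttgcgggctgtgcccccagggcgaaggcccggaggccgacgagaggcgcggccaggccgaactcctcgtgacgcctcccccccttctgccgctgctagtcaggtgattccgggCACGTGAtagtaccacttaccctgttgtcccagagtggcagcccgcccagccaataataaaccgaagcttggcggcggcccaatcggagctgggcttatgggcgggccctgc
Fnip1: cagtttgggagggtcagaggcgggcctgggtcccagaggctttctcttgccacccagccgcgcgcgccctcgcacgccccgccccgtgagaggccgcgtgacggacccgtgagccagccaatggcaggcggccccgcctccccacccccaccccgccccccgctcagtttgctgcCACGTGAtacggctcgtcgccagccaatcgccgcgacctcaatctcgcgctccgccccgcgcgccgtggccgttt
Ifi30: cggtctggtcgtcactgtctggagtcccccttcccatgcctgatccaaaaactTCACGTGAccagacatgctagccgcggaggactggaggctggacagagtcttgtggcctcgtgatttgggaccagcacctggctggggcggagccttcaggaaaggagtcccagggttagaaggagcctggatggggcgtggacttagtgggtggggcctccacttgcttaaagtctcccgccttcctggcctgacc
Klf6: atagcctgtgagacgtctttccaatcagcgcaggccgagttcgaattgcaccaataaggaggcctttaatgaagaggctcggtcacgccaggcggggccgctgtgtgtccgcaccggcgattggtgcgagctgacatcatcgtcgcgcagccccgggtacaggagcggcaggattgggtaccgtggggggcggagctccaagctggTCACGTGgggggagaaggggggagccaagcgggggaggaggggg
Lamp1: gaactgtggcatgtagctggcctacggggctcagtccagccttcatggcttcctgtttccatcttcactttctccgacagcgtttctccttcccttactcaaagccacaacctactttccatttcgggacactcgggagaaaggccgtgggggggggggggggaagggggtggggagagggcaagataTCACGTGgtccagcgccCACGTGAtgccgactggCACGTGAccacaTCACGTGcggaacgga

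Lists of the stress pathways that the 5 genes belong to gave few calls in the members, where 0.257% of 5451 genes were called higher. At that share lists of this size give few calls in any case, so these counts cannot decide on a stress response. The members are named by the 5 genes, and whether a stress response gave their levels was not tested. Of the ATF4 and CHOP target list 15 genes were tested without the rule genes and 0 were called in the members. Its median log2 ratio was 0.28 and 0.31, and 12 of 15 stood above 0 in both libraries. When cells were scored after thinning to 2500 UMIs, the median in the library labelled wild type was 0.07. The summed level was 1.24-fold (1.17 to 1.30) and 1.27-fold (1.22 to 1.33) that of the remaining cells. In the other members the list had a median of 0.28 and 0.37 with 14 of 15 above 0, and in the low-mitochondrial ones 0.28 and 0.13 with 9 of 15 above 0. Ppp1r15a, which lets translation resume, had log2 ratios of 0.80 and 0.93 in all members, Ddit4, an inhibitor of mTORC1, 0.27 and 0.91, and Sesn2 0.62 and 0.43. Cebpb, a partner of CHOP, was called in the low-mitochondrial members at 1.46 and 2.36, from 12 and 26 UMIs. Asns, the asparagine synthetase gene, stood at 133 against 97.8 and at 205 against 152 CPM. The amino acid synthesis list had 0 of 14 called, the amino acid transporter list 0 of 6 and the aminoacyl-tRNA synthetase list 0 of 20.

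Of the p53 target list 24 genes were tested and 0 were called in all members, with medians of 0.04 and 0.18, the first of which became -0.06 when the sums were scaled by TMM. In the low-mitochondrial members its median was 0.43 and 0.61, and 1 of 25 tested genes was called higher, beside 1.83% of all genes. That gene was Mdm2, which encodes the ubiquitin ligase that restrains p53, at 403 against 140 CPM and at 321 against 127 CPM. Perp had log2 ratios of 1.74 and 1.87 and the death receptor gene Tnfrsf10b 1.23 and 1.55 there, both from 13 or fewer UMIs. The summed level of the list there was 1.01-fold (0.939 to 1.08) and 1.03-fold (0.970 to 1.09), near that of the other cells, so its median and its sum differ. The pro-apoptotic list had 0 of 9 genes called in all members, with Bbc3, which encodes Puma, at 0.08 and 0.48.

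The unfolded protein response list, chaperones and folding enzymes of the endoplasmic reticulum, had 0 of 15 genes called in all members and medians of 0.01 and -0.06. In the low-mitochondrial members the median was -0.66 and -0.56, with 12 of 15 below 0 and Hspa5, the chaperone BiP, called lower. In the low-mitochondrial remaining cells it was lower still, at -1.75 and -1.39, with 11 of 15 called. Of the heat shock list 1 of 9 tested genes, Hspb1, was higher in the members, beside 0.257% of all genes. It stood at 103 against 24.7 and at 50.8 against 24.3 CPM. In the library labelled wild type 1 member held 42 of its 74 UMIs. Of the oxidative stress list Hmox1, heme oxygenase, at 1.27 and 1.22, and Sqstm1, the autophagy receptor p62, at 1.30 and 1.05, were higher in the low-mitochondrial members, and Txnrd1 was lower.

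Other transcripts high in the low-mitochondrial members were mostly not high in the low-mitochondrial remaining cells. Malat1, a nuclear noncoding RNA, stood at 10920 and 11610 CPM in them against 2680 and 2378 in the remaining cells at 1% or more. It was detected in 76.9% and 84.2% of them but in only 29.6% and 21.5% of the low-mitochondrial remaining cells, where its log2 ratio was -0.73 and -0.66. Btg1, an antiproliferative gene, had log2 ratios of 2.03 and 1.91 and Klf6, an early response transcription factor, 2.49 and 2.76 in the low-mitochondrial members. Apoe, chosen for its value, stood at 446 against 112 and at 683 against 91.3 CPM. Fabp3, a fatty acid binding protein, was at 1.80 and 2.37, but it stood at 1.76 and 0.49 in the low-mitochondrial remaining cells too. The cytosolic ribosomal protein genes had a median of 0.34 and 0.32 in the low-mitochondrial members and 0.32 in the low-mitochondrial remaining cells of both libraries.

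Of the genes called lower in the low-mitochondrial members, 3.06% of all genes, several belong to lists of lipid synthesis, cell identity and the cell cycle. The cholesterol synthesis list had 8 of 19 tested genes lower and medians of -1.03 and -1.11. Sqle, the squalene epoxidase gene, stood at 21.2 against 104 and at 10.2 against 98.8 CPM. Of the primitive streak list 3 of 5 were lower. They were Eomes, at 7.07 against 95.8 and at 35.7 against 196 CPM, Fgf8, and T, with 1 UMI in the wild-type-labelled library and 0 in the other, at least 3.48-fold lower at a floor of 3 UMIs over the group. Sp5, itself a Wnt target, had log2 ratios of -2.68 and -1.89 and was the 1 gene of 5 called in the Wnt feedback list. The primed epiblast list was mixed, with 3 of 10 genes lower and 1 higher. The lower ones were Sox3, Pim2 and Dnmt3b, a DNA methyltransferase, which was at -1.44 and -1.72, and the higher one was Utf1, a chromatin-associated epiblast factor, at 1.17 and 1.44. The S phase list had a median of -0.74 and -0.91 with 3 of 22 lower. Of the G2/M list 3 of 27 were lower, among them Aurkb, a mitotic kinase, at -1.51 and -2.74. In the other members 0 genes of these lists were called, and their medians lay between -0.11 and 0.20, or -0.21 and -0.15 for the G2/M list that holds Aurkb.

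In the low-mitochondrial remaining cells the median over all genes was -0.34 and -0.33 and 18.7% of genes were called lower. Of the 170 genes lower in the low-mitochondrial members, 62 (36.5%) were also lower in these cells, against the same reference. There the cholesterol list had a median of -1.25 and -0.81 with 7 of 19 genes lower, and the streak list -1.39 and -0.83 with 2 of 5 lower. The S phase list, at -0.40 and -0.47 with 2 of 22 lower, lay near the median over all genes. Set directly against those cells, the low-mitochondrial members had medians of -0.07 and -0.18, -0.70 and -0.58, and -0.36 and -0.59 for these 3 lists. The primed epiblast list had -1.08 and -0.87 in the low-mitochondrial remaining cells, with 4 of 10 genes lower, Dnmt3b among them. Set directly, the members had 0.10 and 0.20 for it, with 1 gene higher and 0 lower. The Wnt feedback list had -0.79 and -0.69 in the low-mitochondrial remaining cells with 0 of 5 lower. Set directly, it had -0.72 and 0.11, with Sp5 lower. Mixl1, a streak transcription factor, had 0 UMIs in the low-mitochondrial members of both libraries. Whether fewer transcripts per cell or a different mix of cells gave these levels was not tested.

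Set against the low-mitochondrial remaining cells, where the median over all genes was 0.19 and 0.23 and 13.8% of genes were called higher, several lists had a larger share of genes called. The small nucleolar RNA host list had 10 of 15 genes higher and the lysosomal enzyme and membrane list 14 of 16. Of the amino acid transporters 5 of 7 were higher (Slc7a5, Slc3a2, Slc1a5, Slc38a1 and Slc38a2), with a median of 1.87 and 1.80. Of the immediate early genes 6 of 10 were higher (Fosb, Jun, Junb, Egr1, Btg2 and Klf6), with a median of 1.61 and 2.48. The low-mitochondrial remaining cells were themselves low in both lists, with 6 of 7 and 5 of 10 genes lower than in remaining cells at 1% or more. Against the remaining cells at 1% or more, the low-mitochondrial members had 0 transporters higher and 1 lower, with medians of -0.09 and -0.25. There 1 immediate early gene was higher and 1 lower, with medians of -0.16 and 0.59. The ribosomal protein list had 0 of 82 called, with a median of 0.02 in each library. The ATF4 and CHOP list had 3 of 15 higher, Sesn2, Cebpb and Ppp1r15a.

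**Figure D5:**
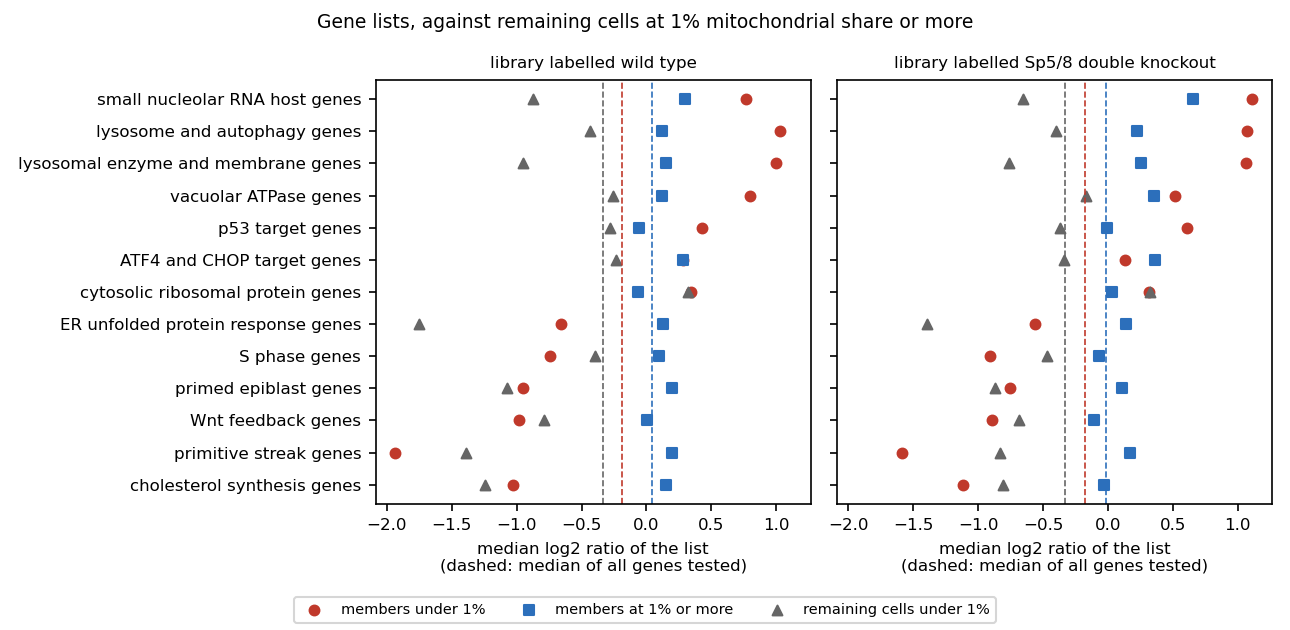
Median log2 ratio of 13 gene lists against the remaining cells at 1% or more, for low-mitochondrial members (red circles), the other members (blue squares) and low-mitochondrial remaining cells (grey triangles), with dashed lines at the median of all genes. The red circles of the host gene list stand at 0.76 and 1.11 and those of the lysosome and autophagy list at 1.03 and 1.07, while the ATF4 and CHOP list stands at 0.28 and 0.37 in the other members.

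Markers of other cell types were checked in all members. The trophoblast list summed to 3.56-fold (2.91 to 4.30) the level of the remaining cells in the wild-type-labelled library and 1.61-fold (1.21 to 2.09) in that labelled double knockout, with 2 and 3 of its 8 genes at 0 UMIs in the members. Krt8 and Krt18 gave most of its UMIs. In the former 1 member held 26 of 45 Krt8 UMIs, and 1 member held 33 of 51 Krt18 UMIs. The extraembryonic endoderm list summed to 2.09-fold (1.73 to 2.51) and 0.994-fold (0.758 to 1.28). Sparc gave 100 of its 119 UMIs in the members labelled wild type, and 1 member held 53 of these. The fibroblast list did not differ beyond its interval, at 1.05-fold (0.453 to 2.08) and 1.64-fold (0.846 to 2.88), nor did the germ cell list, at 1.21-fold and 0.856-fold. The 2-cell-like list had 0 UMIs in the members of both libraries. The part of these cells in the results was not tested.

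Of 5451 genes 32 differed by at least 1 in log2 ratio between the libraries with counting intervals that did not overlap. With 1 library each, genotype and library cannot be told apart. Without the low-mitochondrial members 35 genes did. Zfas1, at 1.41 and 2.41, and Snhg1, at 1.197 and 2.248, had the higher ratio in the library labelled double knockout. Tubb3, a neuronal tubulin, had the higher ratio in that labelled wild type, at 366 against 105 CPM beside 96.6 against 112, but 3 members held 194 of its 262 UMIs. Peg10 and Sparc were likewise carried by 3 members with 68 of 96 and 73 of 100 UMIs. Fam129a was the gene of the rule that differed most, at 9.1-fold and 30.9-fold over the remaining cells, from 14 and 49 UMIs. It helped choose the members, whose lowest share was 2.24 and 3.00 per 10000, so these values are a description only.

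Cells with a low share of transcripts from a whole chromosome, at most 80% of the median after thinning to 4000 UMIs, were looked for on 20 chromosomes. Only cells of 4000 or more UMIs entered, which hold 71 and 89 members, 15 and 23 of them low-mitochondrial, and all shares below are of these cells. For chromosome 11 they made up 25.4% of members (interval 15.8 to 37.1) against 17.3% of remaining cells in the wild-type-labelled library, and 24.7% (16.2 to 35.0) against 5.73% in that labelled double knockout. For chromosome 6 the shares were 26.8% against 18.3% and 25.8% against 17.5%. The interval for chromosome 11 in the library labelled double knockout lay above the share of the remaining cells, and those for chromosome 6 and for chromosome 11 in the other library did not. For chromosome 1 the shares were 5.63% (1.56 to 13.8) against 0.477% and 3.37% (0.701 to 9.54) against 0.523%, and for chromosome 2 they were 4.23% (0.88 to 11.9) against 0.621% and 5.62% (1.85 to 12.6) against 0.424%. Chromosome 16 gave 12.4% (6.33 to 21.04) against 3.42% in the library labelled double knockout but 1.41% against 3.35% in the other. The interval also lay above the remaining share for chromosome 10 in the library labelled wild type and for chromosomes 4, 5 and 12 in that labelled double knockout. These rest on few cells, 3 to 5 members for chromosomes 1 and 2. For chromosome 11 the other members alone gave 21.2% (12.1 to 33.0) against 5.67% in the library labelled double knockout. Of the members low for chromosome 2, 3 of 3 and 4 of 5 were low-mitochondrial, and for chromosome 1 these were 2 of 4 and 2 of 3. For chromosome 16 in the library labelled double knockout they were 6 of 11. The chromosomes named were chosen after the values were seen, and the intervals are not adjusted for the 20 chromosomes.

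Across all kept cells the genes whose thinned log counts went most with the share of the 5 genes were 2410006H16Rik, Zfas1, Gas5, Malat1 and Snhg1. Their Pearson correlations lay between 0.021 and 0.064 over 8707 cells and between 0.056 and 0.101 over 10587 cells. These are weak values in sparse counts, with every cell thinned to 2500 UMIs. Several genes named here overlap a gene on the other strand, among them Zfas1 with Znfx1, Gas5 with Zbtb37, Ddit3 with Mars, Hexa with Tmem202 and Cebpb with Tmem189. The counting's use of strand is not given in the sources used here, so reads of such partners cannot be told apart.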

How the data were processed

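Single-cell RNA-seq of 1 library per genotype was analysed from the count matrices that the authors deposited, whole UMI counts per gene and barcode. The submitters' processing notes name STARsolo, STAR 2.7.9a, Seurat 5.1.0 and the build mm10, and the extraction protocol names Cell Ranger 8.0.1; which of them gave the deposited counts, and whether strand was used, is not given in the sources used here. The cell numbers the labels state differ from those kept by the filters here.

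Counts were summed over cells and scaled to 1000000 UMIs (CPM), log2 ratios used a pseudocount of 0.5 UMI, and in comparisons split at a mitochondrial share of 1% the totals leave out mitochondrial genes. Median depth was 10571 and 8637 UMIs a cell, so a single UMI is about 1 in 10000. Clustering used scanpy 1.11.5 (2000 variable genes, 30 principal components, 15 neighbours, Leiden resolution 0.5), intervals scipy 1.17.1, and the scaling alternative edgeR 4.0.16. Doublets were scored at 0.8% per 1000 cells and kept, with removal as an alternative. With 1 library per genotype no test across conditions was made. The code for gene ratios and calls was tested on simulated data drawn with counting error only, and the interval code was not.

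Genes were named as the 5 rule genes, the 12 highest and 8 lowest by the ratio nearer 0 of both libraries at 20 CPM or more (leaving out mitochondrial, ribosomal and clone-named genes), the 4 largest ratios in each list at 10 CPM or more, the label genes Sp5, Sp8 and T, and the 5 most correlated genes. Genes named for the low-mitochondrial members, and other genes of the called sets, were chosen after values were seen. The members and all 34 lists were chosen with earlier results of these data known. Of the named genes, 116 of 152 matched a RefSeq promoter. Some genes are not reported here.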

Additional observations from a re-analysis of the deposited data

Results flagged for a closer look

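For 7 genes the members stood on opposite sides of the remaining cells in the libraries, with counting intervals that did not overlap. The difference between the libraries was not tested, since each genotype has 1 library, and values are log2 ratios of members to remaining cells, the library labelled double knockout minus that labelled wild type. Lefty1, an inhibitor of Nodal signalling, differed by 1.64, at 37.7 against 56.5 CPM in the library labelled wild type and 108 against 51.2 in the other, where 3 members held 24 of its 85 UMIs. The other 6 genes had the lower ratio in the library labelled double knockout. Rhox5 differed by -2.42, at 72.6 against 52.2 and at 14.0 against 55.6 CPM, with 33 of 52 UMIs of the first library in 3 members. Col4a1, a basement membrane collagen, differed by -2.22, at 47.5 against 31.9 and at 8.89 against 29.4 CPM. In the first library 3 members held 19 of its 34 UMIs, and the other had 7. The values were -1.8 for Kif5c, -1.63 for Mef2a, -1.44 for Elovl5 and -1.42 for Etv4. These rest on 34 and 11, 25 and 8, 33 and 14, and 32 and 18 UMIs in the members. Without the low-mitochondrial members, Lefty1, Rhox5 and Col4a1 still stood on opposite sides. Kif5c, Elovl5 and Etv4 then did not do so beyond their intervals, and Mef2a was not among the genes that differed.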

How the results depend on the processing

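No paired analysis was possible because each genotype has 1 library and no test was made. The count of 14 genes higher in members became 33 with the top 0.5% of cells, 2 with the top 2%, 0 when cells were scored after thinning, 6 at a minimum of 5000 UMIs, 3 without Ddit3 in the score, 24 at 10 CPM, 8 at 50 CPM, 51 at 1.5-fold and 0 without the members under 1% mitochondrial share. The count of 0 lower genes became 12 with the top 0.5%, 1 without Pmaip1, 2 by the mean of each cell's CPM, 3 at 10 CPM and 14 at 1.5-fold. The share of members under 1%, 29.9% and 35.8%, became 43.2% and 49.1% with the top 0.5%, 17.8% and 22.2% with the top 2%, 10.3% and 18.9% after thinning, and 15.7% and 17.0% at 5000 UMIs. Such cells are also rarer among all kept cells of 5000 or more UMIs. There 88 cells lay under 1% and 8208 at 1% or more in the library labelled wild type, and 62 and 9908 in the other. Splitting at 0.5% gave 26.4% in the library labelled double knockout. At 50 CPM the low-mitochondrial members had 36 genes higher and 88 lower. Lists with a median above that of all genes in both libraries numbered 10 of 30, and 5 after thinning. The cause of these differences was not tested. After thinning most cells at the edge tie at 1 UMI, so file order decides among them. Scaling by TMM left 10 higher genes and shifted all ratios by 0.104 and 0.04, which took the p53 list's median in the library labelled wild type below 0. Of the other values recomputed, 210 moved by less than their spread or interval and 28 moved further. Depth limits each member, since most carry 3 or fewer UMIs of the 5 genes. The alternative without members under 1% was added after seeing the data.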
